A study of Homo sapiens with 4 samples.

Results

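AP-1 is described here through 8 of its genes, FOS, FOSB, FOSL1, FOSL2, JUN, JUNB, JUND and ATF3, which were chosen by name. All 8 were found in each count table, among 19577 genes in all. The cells were MCF10A, an untransformed human mammary epithelial line carrying a GFP label on histone H2B. All groups shared this genotype and were seeded as circular patches of 10000 cells on fibronectin and grown for 6 days with 20 ng/ml EGF, hydrocortisone, cholera toxin and insulin. No arm lacked EGF. Live cells were released with trypsin, sorted into 384-well plates and sequenced by SORT-seq, which counts mRNA molecules at their 3' end with unique molecular identifiers (UMIs). Photoactivatable dyes (40 μM) were switched on by light for 2 min to mark regions. In 2 low-resolution patches the cells were phototagged in rings of 1000 to 1500 μm. In 2 high-resolution patches they were phototagged in bands of 250 μm at the invasive edge, with the inside of the patch as the remaining layer. Each biological replicate filled 1 plate, and the plate is the replicate. That 1 patch supplied each plate is assumed. A single cell line in the same medium stands behind every value. The region from which each well was filled was not analysed here.

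AP-1 factors are dimers of basic leucine zipper proteins that bind the DNA sequence TGAGTCA. Jun proteins pair with each other, with Fos proteins or with ATF proteins, while Fos proteins need a partner. FOS, FOSB, JUN, JUNB and ATF3 are known as genes switched on within minutes by growth factors, handling or stress, whereas FOSL1 (FRA-1) and FOSL2 (FRA-2) are slower targets of sustained ERK signalling, and FOSL1 is known from invasive and mesenchymal breast cells. JUND is the member most often found at a steady level.

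RefSeq places the 8 genes on 5 chromosomes of GRCh38.p14. JUN lies at chr1:58780791-58784047 and ATF3 at chr1:212565407-212620777. FOSL2 lies at chr2:28392858-28417317, FOSL1 at chr11:65892049-65900545 and FOS at chr14:75278828-75282230. Chromosome 19 holds JUNB at chr19:12791486-12793315, JUND at chr19:18279694-18281622 and FOSB at chr19:45467996-45475179. In GENCODE v29, FOSB overlaps ERCC1 and JUNB overlaps HOOK2, both on the opposite strand. FOSL2 overlaps an antisense transcript and, on its own strand, a transcript within an intron. Whether the counting used strand is not given in the sources used here.

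The 250 bases before the start of the 4 members that rose most with early-response genes are shown, because these members share short sequences there. The sequences are RefSeq's on GRCh38.p14, each on the strand of its gene. Capitals mark TGACG, the core of a cyclic AMP response element, the related TGACATCA, and the TATA box TATAAA, searched on the gene's strand only. The other motifs were searched on both strands.
FOS (chr14:75278578-75278827): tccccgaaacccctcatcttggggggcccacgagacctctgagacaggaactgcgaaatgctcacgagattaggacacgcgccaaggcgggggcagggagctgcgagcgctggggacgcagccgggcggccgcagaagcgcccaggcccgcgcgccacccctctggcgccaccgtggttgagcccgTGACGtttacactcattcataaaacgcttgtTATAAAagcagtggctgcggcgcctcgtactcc
FOSB (chr19:45467746-45467995): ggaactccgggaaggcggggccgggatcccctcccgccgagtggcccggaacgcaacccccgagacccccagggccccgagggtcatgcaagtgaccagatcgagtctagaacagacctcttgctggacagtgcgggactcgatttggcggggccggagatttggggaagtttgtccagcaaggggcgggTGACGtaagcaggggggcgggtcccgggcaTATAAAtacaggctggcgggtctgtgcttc
JUNB (chr19:12791236-12791485): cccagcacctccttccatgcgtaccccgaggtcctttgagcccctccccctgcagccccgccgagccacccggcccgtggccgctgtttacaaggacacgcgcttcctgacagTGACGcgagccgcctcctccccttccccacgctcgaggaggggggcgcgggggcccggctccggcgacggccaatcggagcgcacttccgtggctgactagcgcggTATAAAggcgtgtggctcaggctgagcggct
JUN (chr1:58784048-58784297): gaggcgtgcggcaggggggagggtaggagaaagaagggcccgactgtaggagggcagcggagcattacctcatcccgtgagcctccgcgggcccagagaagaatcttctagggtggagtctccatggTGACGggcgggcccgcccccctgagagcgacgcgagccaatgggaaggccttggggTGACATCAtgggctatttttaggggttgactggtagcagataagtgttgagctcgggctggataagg
FOS held TGACG 64 bases and TATAAA 33 bases before its start, and FOSB held them at 60 and 30 bases. JUNB held TATAAA at 31 bases, with TGACG further upstream than in FOS and FOSB. JUN held no TATAAA, but TGACG at 123 and TGACATCA at 67 bases. Of 35116 promoters of this length in the table, 21.2% held TGACG, 6.80% held TATAAA, 2.38% held TGACATCA and 4.20% held TGAGTCA, the AP-1 site itself, which none of the 7 matched members held in this window. JUND held the full element TGACGTCA, which contains TGACG on each strand, found in 1.65% of promoters. FOSL2 held TGACG on each strand, and ATF3, which has 2 starts in the table, held TGACATCA before the first of them. In all, 7 of the 8 members matched the table, and FOSL1 was the one that did not. These matches describe letters in a window and not a bound site.

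Totals were 1.17e+07 to 1.5e+07 deposited counts per plate, and 1146 cells of 1536 wells passed the filter, 562 at low and 584 at high resolution, with 271 to 293 per plate. Median depth was 29185 to 39240 UMIs per cell. The basal keratins KRT5, KRT6A and KRT17 with ITGA6 and EGFR had a UMI in 78.4% or more of the cells of every plate, and KRT14 in 43.9% to 77.3%. TP63, another basal marker, was near 0, with 9 to 12 UMIs per plate. PGR and PTPRC had a UMI in at most 1.71% of cells. The endothelial gene PECAM1 was found in 28.5% to 47.1% of cells at a low level and the fibroblast gene COL1A1 in 17.3% to 27.6%, which goes against the list of markers that should be absent. All plates used the same 384 well barcodes. Cells in the same well of different plates had a median correlation of -0.00293 to 0.0553, beside -0.0101 to -0.00400 over all pairs of cells.

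FOSL1 and JUNB were about 2 times higher in the high-resolution than in the low-resolution plates, and the other 6 genes did not pass the test. Levels are UMIs per 10000 over the cells of a plate, given as low-resolution replicate 1, low-resolution replicate 2, high-resolution replicate 1 and high-resolution replicate 2. FOSL1, which encodes FRA-1, stood at 1.08, 0.746, 2.01 and 2.29. JUNB, the Jun protein that pairs readily with FOS and weakens JUN, stood at 1.79, 1.51, 3.10 and 4.16. For both genes the high-resolution plates lay above the low-resolution plates with no overlap. ATF3 did so too by a small margin (0.991 against 0.972 for the nearest plates), and JUND lay the other way without overlap. The share of all genes without overlap was not counted. FOSL1 rose by 1.28 on the log2 scale (SE 0.145, adjusted p = 2.92e-04) and JUNB by 1.17 (SE 0.139, adjusted p = 3.87e-04), by edgeR's quasi-likelihood test on the 4 plate sums.

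**Figure D1:**
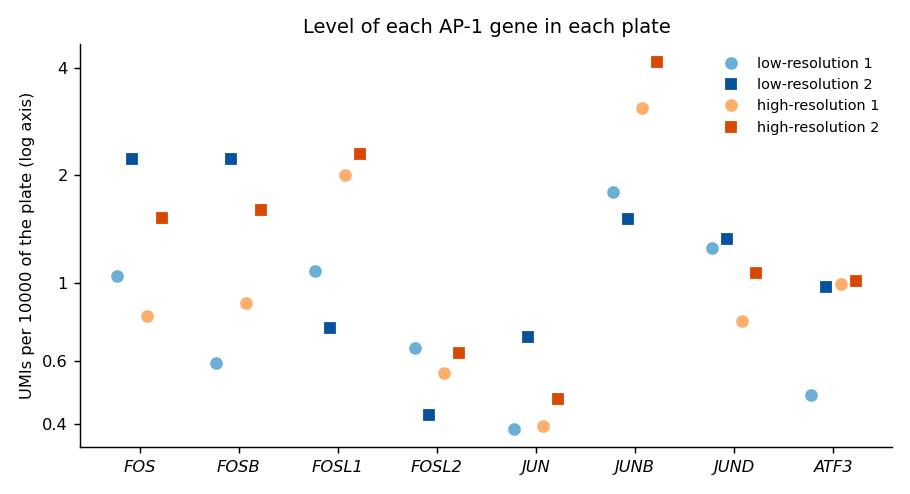
UMIs per 10000 in each of the 4 plates (vertical log axis) for the 8 AP-1 genes, with low-resolution plates in blue and high-resolution plates in orange. FOSL1, JUNB and, by a small margin, ATF3 show both orange points above both blue points, and JUND shows both below. FOS, FOSB and JUN are highest in low-resolution replicate 2.

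FOS stood at 1.05, 2.23, 0.803 and 1.52, and FOSB at 0.595, 2.23, 0.875 and 1.60. JUN, the founding Jun protein, stood at 0.388, 0.701, 0.394 and 0.469. In all 3 genes low-resolution replicate 2 was the highest plate and the 2 experiments overlapped. ATF3, a stress-induced repressor, stood at 0.481, 0.972, 0.991 and 1.01, with low-resolution replicate 1 below the other plates. FOSL2 stood at 0.654, 0.424, 0.557 and 0.635. JUND stood at 1.25, 1.33, 0.777 and 1.06, lower in both high-resolution plates, and its log2 difference of -0.45 had an adjusted p of 0.0576. The differences of the other members that missed the threshold ranged from -0.47 for FOS to 0.48 for ATF3, with adjusted p from 0.212 to 0.830. Thus 2 of 8 members were called, both higher, beside 12.4% of 12437 genes called in either direction, 6.26% higher and 6.18% lower. The median log2 difference of the 8 was 0.01, beside -0.02 over all genes. Without low-resolution replicate 2, FOSB was called at 1.14 (adjusted p = 0.0248) and ATF3 at 1.13 (adjusted p = 0.00102). Without high-resolution replicate 2, FOS was called at -0.99, FOSB at -0.66 and JUND at -0.68. Without high-resolution replicate 1, ATF3 was called at 0.50 (adjusted p = 0.0427). FOSL1 and JUNB were called in each of these fits. Without low-resolution replicate 1, FOSL1 was 1.53 and JUNB 1.27 higher, and JUN had a difference of -0.70. The bands differ in width between the experiments, so the experiment and the part of the patch that was sorted cannot be told apart.

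The genes of the AP-1 pathway were also compared between the experiments, and their counts stand beside 6.26% of all genes called higher and 6.18% lower. The lists were chosen with earlier results of these data known, so their counts are a description and not a test. Of 17 known AP-1 targets, among them proteases, their receptors and cytokines, 13 had enough counts and 11 rose, with none lower and a median of 1.07. The cytokines IL6 and CXCL8 rose by 2.80 and 1.87, while the protease inhibitor TIMP1 rose by 0.43 and the hyaluronan receptor CD44 by 0.36. Of 22 tested early-response genes 6 rose and none fell, with NR4A1 at 2.09 and KLF10 at 1.59 the largest. Of 13 ERK feedback genes 4 rose, led by SPRY4 at 1.59, a brake on receptor signalling, and DUSP6 at 1.13, an ERK phosphatase. HSPA8 was the 1 of 11 heat shock genes called and PHGDH the 1 of 14 ATF4 targets called, both higher. Of 12 tested basic leucine zipper partners 1 rose, MAFF by 0.71, and 1 fell. Of 12 kinases of the JNK, p38 and ERK cascades MAP3K1 alone was called, at -0.96. CDH1, the epithelial cadherin, fell by 0.68, while VIM, an intermediate filament of mesenchymal cells, rose by 0.94 and FN1, fibronectin, by 0.77. PECAM1, 1 of the 2 tested genes that the line should lack, rose by 0.55, and KRT6A and KRT17 rose by 0.62 and 0.54, and their part in the results on FOSL1 and JUNB was not tested.

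Within the plates, FOSL1, JUNB and FOSL2 were higher in cells with a high EMT score, while FOS, FOSB, JUN and JUND were lower. The EMT score is the enrichment of 103 mesenchymal genes minus that of 64 epithelial genes in each cell and holds no AP-1 gene. In each plate the cells were divided by score into 3 groups of equal size, and the high-EMT group was set against the low-EMT group, 90 or 97 cells each, with the plate as a block. FOSL1 stood in the low-EMT groups at 0.625, 0.392, 1.37 and 1.56 UMIs per 10000 and in the high-EMT groups at 1.52, 1.02, 2.55 and 3.07, in the order of plates above. JUNB stood at 1.46, 1.06, 1.76 and 3.11 in the low-EMT and at 2.23, 2.20, 4.55 and 5.98 in the high-EMT groups. Every plate moved the same way for both genes. FOSL1 rose by 1.03 (SE 0.0969, adjusted p = 6.34e-06), JUNB by 0.91 (SE 0.110, adjusted p = 4.63e-05) and FOSL2 by 0.35 (SE 0.115, adjusted p = 0.0314) on the log2 scale.
FOS ran the other way, from 1.49, 2.48, 1.21 and 2.51 in the low-EMT groups to 0.567, 1.65, 0.296 and 0.790 in the high-EMT groups. The share of cells with a FOS UMI fell with it, from between 85.6% and 92.2% to between 44.3% and 72.2%. JUND, from 1.40, 1.60, 0.851 and 1.36 to 0.944, 0.943, 0.615 and 0.902, was lower in all plates. FOS fell by 1.46 (SE 0.182, adjusted p = 6.10e-05), FOSB by 0.94 (SE 0.158, adjusted p = 5.63e-04), JUN by 0.85 (SE 0.20, adjusted p = 0.00538) and JUND by 0.69 (SE 0.0821, adjusted p = 4.31e-05). ATF3 had a log2 difference of -0.07 (SE 0.167, adjusted p = 0.777). In all, 7 of 8 members were called, 3 higher and 4 lower, beside 40.7% of 10595 genes called in either direction, 20.1% higher and 20.6% lower. The median log2 difference was -0.38 over the members.

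**Figure D2:**
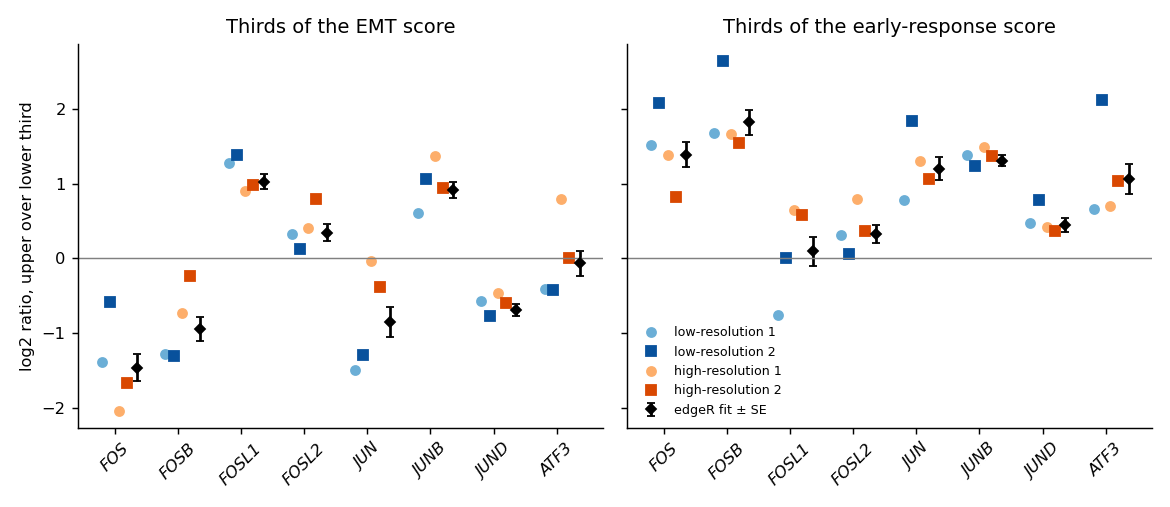
Log2 ratio of the high-score over the low-score group of cells (vertical axis) in each plate (circles and squares) and the edgeR estimate with its SE (black diamonds) for the 8 genes (horizontal axis), by the EMT score (left) and by the early-response score (right). On the left FOSL1, FOSL2 and JUNB lie above 0 in all plates and FOS, FOSB, JUN and JUND below, and on the right every gene but FOSL1 lies above 0 in all plates.

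The mitochondrial share of counts moved with the score, from medians of 32.6%, 33%, 33.8% and 31.7% in the low-EMT groups to 26.3%, 29%, 27.6% and 25.9% in the high-EMT groups, and its part in these results was not tested. Median UMI counts were 31962, 35402.5, 37422 and 36153 in the low-EMT and 26713, 29194.5, 37276 and 39907 in the high-EMT groups. Of 6 tested markers of the line 2 fell along the score, KRT5 by 0.81 and KRT17 by 0.74, and ITGA6 rose by 0.22. With groups made in cells thinned to 10000 UMIs, FOSL1 was 0.88 and FOS -1.44, and the 7 calls held in the same directions. Without the plate term 3 members were called, FOS, JUN and JUND. FOSL2 was not called by DESeq2 or when either high-resolution plate was left out.

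For JUN, FOSB, ATF3 and FOS the difference along the EMT score was not the same in the 2 experiments. The ratio of the high-EMT to the low-EMT group for JUN was 0.356 and 0.408 in the low-resolution and 0.972 and 0.769 in the high-resolution plates. FOSB had ratios of 0.413 and 0.404 against 0.604 and 0.850, and ATF3 of 0.755 and 0.748 against 1.73 and 1.00. FOS had 0.382 and 0.666 against 0.244 and 0.314, so its ratio was lower in the high-resolution plates. The log2 difference between the experiments, high minus low resolution, was 1.15 for JUN (SE 0.187, adjusted p = 0.00206), 0.86 for FOSB (SE 0.158, adjusted p = 0.00610), 0.79 for ATF3 (SE 0.197, adjusted p = 0.0371) and -0.88 for FOS (SE 0.206, adjusted p = 0.0273). These 4 of 8 members were called, beside 3.24% of 10595 genes called in either direction, 1.07% higher and 2.17% lower. FOSL1, at ratios of 2.43 and 2.62 against 1.86 and 1.97, gave a difference of -0.38 (SE 0.132, adjusted p = 0.138), and the differences of JUNB, FOSL2 and JUND were 0.33, 0.40 and 0.14 with adjusted p of 0.270 or more. With DESeq2 JUN alone was called (1.18, adjusted p = 0.0425). JUN was also called in each fit with a plate left out. Without low-resolution replicate 2, FOS was -0.39 and ATF3 0.81 (adjusted p = 0.351 and 0.0556), and neither was called. ATF3 was also not called without high-resolution replicate 1 (0.43), nor FOSB without high-resolution replicate 2 (0.55). With no mitochondrial limit ATF3 (0.61, adjusted p = 0.193) and FOS (-0.83, adjusted p = 0.0568) were not called.

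Other genes of the pathway were called in both directions along the EMT score, and their counts stand beside 20.1% of all genes called higher and 20.6% lower. These counts too are a description, as the lists were chosen with earlier results known. Of 11 tested AP-1 targets, none of them part of the score, 8 rose and 3 fell. The cytokine CXCL8 rose by 3.98. HBEGF, an EGF receptor ligand, fell by 0.99 and VEGFA by 0.80. ERK feedback genes rose in 7 of 13 cases, with SPRY4 at 1.74 and ETV5 at 1.19, and fell in 2, EMP1 at -1.13 and EPHA2 at -0.26. Of 21 tested early-response genes 5 were higher and 5 lower. SOCS3 rose by 1.93 and RHOB by 1.35, while IER2 fell by 0.51 and IER5 by 0.48. Of 12 tested partners of the basic leucine zipper class 5 rose, led by CREB5 at 1.17 and BACH1 at 1.04, and 2 fell, among them NFE2L1 by 0.54. Heat shock genes rose in 5 of 11 cases, with HSPA1A at 0.81 and DNAJA1 at 0.60, and HSPB1 fell by 1.40 and DNAJB1 by 0.61. ATF4 targets rose in 4 of 13 cases, with PHGDH at 1.68 and SLC7A11 at 1.24, and fell in 3, with TRIB3 at -0.99 and DDIT4 at -0.43. MAP3K1, a kinase above JNK and ERK, fell by 1.95 and MAPK3, which encodes ERK1, by 0.58, and none of 11 kinases rose.

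Cells high in other early-response genes were high in 6 of the AP-1 genes, and FOSL1 was not among them. The early-response score is the mean z-score in each plate of 21 genes such as EGR1, IER2 and DUSP1, with no AP-1 gene. JUNB stood in the low group of this score at 1.01, 0.897, 1.65 and 2.38 UMIs per 10000 and in the high group at 2.65, 2.11, 4.63 and 6.16. FOSB rose from 0.322, 0.677, 0.460 and 0.876 to 1.03, 4.21, 1.46 and 2.55. FOS rose from 0.602, 0.946, 0.517 and 1.19 to 1.72, 4.0, 1.35 and 2.12. Low-resolution replicate 2 had the largest ratio for FOSB, at 6.22, and for FOS, at 4.23. JUN had ratios of 1.72, 3.58, 2.47 and 2.09 and ATF3 of 1.58, 4.36, 1.63 and 2.06.
FOSB rose by 1.82 (SE 0.167, adjusted p = 3.83e-04), FOS by 1.39 (SE 0.167, adjusted p = 0.00188), JUNB by 1.31 (SE 0.0755, adjusted p = 3.31e-05) and JUN by 1.20 (SE 0.155, adjusted p = 0.00287). ATF3 rose by 1.06 (SE 0.202, adjusted p = 0.0201) and JUND by 0.45 (SE 0.0945, adjusted p = 0.0264). FOSL2 had a difference of 0.33 (SE 0.119, adjusted p = 0.129) and FOSL1 of 0.10 (SE 0.193, adjusted p = 0.806), with FOSL1 ratios of 0.592, 1.01, 1.57 and 1.5. Thus 6 of 8 members were called, all higher, beside 2.66% of 10563 genes called higher, 2.91% lower and 5.57% in either direction. The median log2 difference was 1.13 over the members. Without the plate term 0 members and 4 genes were called. Without high-resolution replicate 2, 63 genes and 4 members were called, FOS, FOSB, JUN and JUNB. JUND was also not called by DESeq2 (adjusted p = 0.111), with no mitochondrial limit (0.0559), without low-resolution replicate 1 (0.0584) or without low-resolution replicate 2 (0.106). Outside the genes of the score, CXCL8 rose by 2.57 and VEGFA by 0.81 among 11 AP-1 targets, DUSP5 by 1.37 and DUSP6 by 0.50 among 13 ERK feedback genes, and BACH1 by 0.66 and MAFF by 0.65 among 12 partners, of which NFE2L2 was the only other one called. Of 11 heat shock genes 3 fell, with HSPD1 at -0.49 and HSPA8 at -0.47. Of 13 ATF4 targets DDIT3 rose by 1.03, and PSAT1 fell by 0.51 and SLC3A2 by 0.32, while none of 11 kinases was called. VIM rose by 1.16 and EPCAM fell by 0.76 in the same comparison, and KRT14 and KRT6A fell by 1.30 and 0.97. The other EMT markers, CDH1 and FN1, were not called. CDH1 had ratios of 1.13 and 1.17 in the low-resolution and 0.619 and 0.529 in the high-resolution plates. FN1 had ratios of 1.06 and 0.805 in the low-resolution and 3.04 and 1.85 in the high-resolution plates.

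The members were also described by their correlation with both scores across the cells of each plate, 1146 cells in all. Cells of 1 plate share library and sorting, so these values carry no test. FOSL1 followed the EMT score, with 0.262, 0.323, 0.361 and 0.384 in the 4 plates by Spearman's rho (mean 0.333 ± 0.0535, SD), and not the early-response score, with -0.152, 0.0504, 0.153 and 0.117. JUNB followed both, with a mean of 0.320 ± 0.168 for the EMT score and 0.468 ± 0.0750 for the early-response score, and 0 of 8015 other genes had a higher mean for the latter. FOS followed the early-response score, at 0.367 ± 0.198, and ran against the EMT score, at -0.348 ± 0.109. FOSB had 0.379 and -0.168, JUN 0.328 and -0.194, and JUND 0.205 and -0.243 for the same 2 scores. ATF3 had 0.277 with the early-response score and 0.0152 with the EMT score, where its plates ranged from -0.160 to 0.235. FOSL2 was weak on both, at 0.0850 and 0.0995. For the EMT score the middle 90% of 7959 genes lay between -0.257 and 0.287, so FOSL1, JUNB and FOS lay outside that range.

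**Figure D3:**
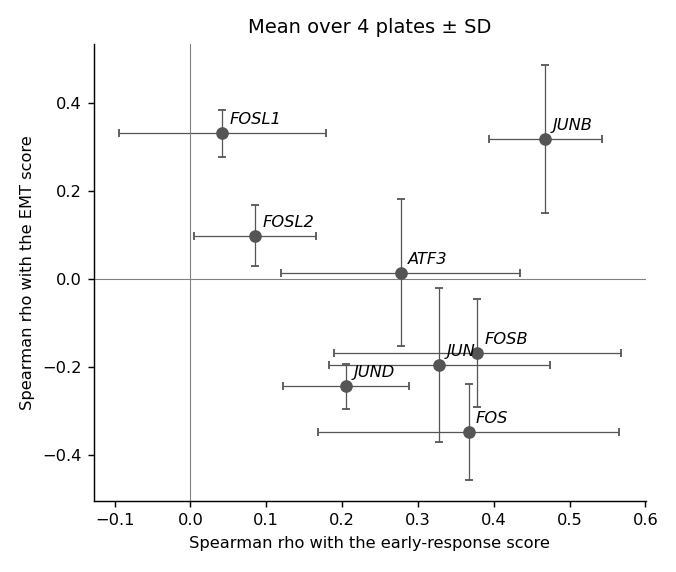
Mean Spearman rho over 4 plates, with SD as bars, of each AP-1 gene with the early-response score (horizontal) and with the EMT score (vertical). FOSL1 lies high at the left near 0.0420 and 0.333, JUNB high at the right, and FOS, FOSB, JUN and JUND lie below 0 on the vertical axis.

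FOSL1 also moved with other measures of the cell. Its mean rho was 0.331 with the G2/M score, 0.297 with the S phase score, 0.298 with the heat shock genes, 0.288 with the ATF4 targets, 0.286 with ERK feedback genes, 0.221 with the UMI count and -0.317 with the mitochondrial share. FOS had -0.144 with G2/M, -0.170 with heat shock, -0.0708 with ATF4 targets and 0.192 with the mitochondrial share. JUNB had -0.0703 with G2/M and 0.201 with ERK feedback. The part of depth and cell cycle in the correlation of FOSL1 was not tested, though in cells thinned to 10000 UMIs its rho with the EMT score was 0.228.

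The genes nearest to FOSL1, FOS, JUN and ATF3 were taken by mean rho over the 4 plates among 8024 genes with a UMI in 20% or more of the cells of each plate. Nearest to FOSL1 were CFL1 (0.419), which severs actin filaments, the metallothionein MT2A (0.413), the receptor tyrosine kinase AXL (0.412), the surface enzyme NT5E (0.411) and the actin bundler FSCN1 (0.410). Among those nearest to FOS were DUSP1 (0.442), a phosphatase of stress kinases, and the epithelial genes CLDN4 (0.352), AZGP1 (0.352) and FXYD3 (0.346). Nearest to JUN were EGR1 (0.322), DUSP1 (0.279), IER2 (0.274), CLDN4 (0.267) and ATP6V1B1 (0.258). Nearest to ATF3 were CDKN1A (0.289), a cell cycle inhibitor, PPP1R15A (0.278), GDF15 (0.264), IER3 (0.219) and HBEGF (0.217).

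Among the members themselves, FOSB went with FOS, JUN and ATF3 across cells, and FOSL1 ran against FOS. FOS and FOSB had a rho of 0.305, 0.668, 0.325 and 0.465 in the 4 plates, with low-resolution replicate 2 the highest. FOSB and ATF3 had a mean of 0.364, FOS and JUN of 0.319 and FOSB and JUN of 0.304. Of 28 pairs, 2 reached 0.2 in every plate, FOS with FOSB and FOSB with JUND (mean 0.273). FOS and FOSL1 had -0.299, -0.122, -0.267 and -0.304, negative in all plates. FOSL1 and FOSL2, the 2 Fra genes, had a mean of 0.0113. In cells thinned to 10000 UMIs, FOS and FOSB had a mean of 0.331, and FOS and FOSL1 of -0.182. FOSB and JUND had a mean of 0.148 in the thinned cells, with 0.0836 in the lowest plate, and so did not reach 0.2 in every plate. Among those cells FOSL1 had a UMI in 44.9%, 38.9%, 65.5% and 70.8% of the cells with FOS and in 67.1%, 48.2%, 75.4% and 79.2% of the rest, lower in the cells with FOS in each plate.

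**Figure D4:**
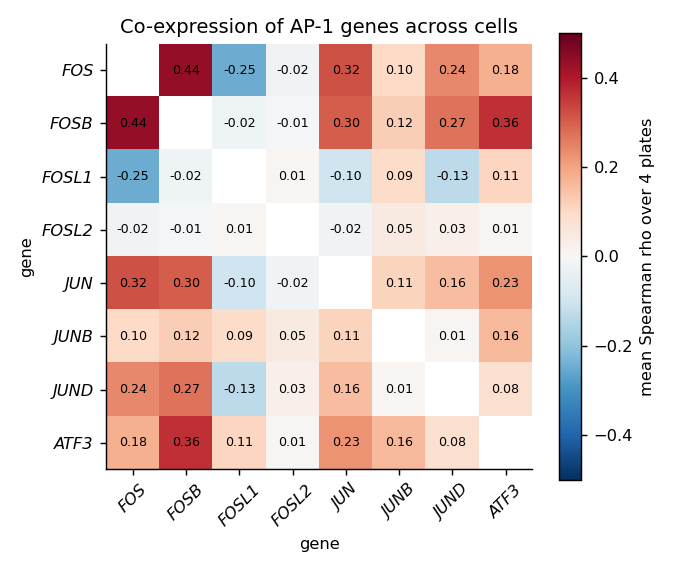
Mean Spearman rho over the 4 plates for each pair of the 8 AP-1 genes, from blue (negative) to red (positive). FOS, FOSB, JUN, ATF3 and JUND are positive with each other, up to 0.441 for FOS with FOSB, FOSL2 is near 0 with all others, and FOS with FOSL1 is the bluest cell at -0.248.

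Cells differed more in FOS, FOSB, ATF3, FOSL1 and JUNB than in most genes of like mean. The variance over the mean of FOS counts in thinned cells was 2.92, 3.27, 3.10 and 4.38, where the median of 200 genes of like mean was 1.18 to 1.43, and 90.5% to 99% of those 200 lay below FOS. For FOSB 95.5% to 98% and for ATF3 93.5% to 98% of the 200 lay below. For FOSL1 it was 87.5% to 94%, for JUNB 84% to 93.5% and for JUN 58% to 96%. The 10% of cells with the most FOSB held 38.7% to 57.3% of its UMIs, and the highest single cell had 79. JUND lay nearer to genes of its mean, with 62% to 80.5% of 200 genes below, and its top 10% of cells held between 25% and 28.5% of its UMIs. FOSL2 ranged from 10% in low-resolution replicate 2 to 99% in high-resolution replicate 1. A UMI was found in 91.1% to 99.3% of cells for JUNB, 89.3% to 96.2% for JUND, 72.7% to 92.8% for FOSL1, 68.6% to 83.6% for FOSL2, 64.9% to 84.9% for FOS, 50.2% to 84.6% for FOSB, 58.1% to 73.4% for JUN and 50.5% to 80.1% for ATF3. In thinned cells FOSL1 was found in 41.8% to 74.2% and FOS in 39.8% to 69%. PTPRC, a blood cell gene that the line should lack, had a UMI in 0.344% to 1.71% of cells before thinning.

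FOS, FOSB, ATF3 and JUN were higher in the last than in the first wells by number in low-resolution replicate 2 and both high-resolution plates, a comparison made after the pattern was seen. In low-resolution replicate 1 JUN was also higher in the last block, at 0.466 against 0.306. Well numbers are those of the count tables, 1 to 384, and the order in which wells were filled is not given in the sources used here. In low-resolution replicate 2, FOS stood at 0.474, 1.68, 3.08 and 3.12 UMIs per 10000 in successive blocks of 96 well numbers, and in high-resolution replicate 2 at 0.811, 1.02, 1.60 and 3.19. In high-resolution replicate 1 it stood at 0.657, 0.444, 0.691 and 1.39, with the last block the highest. Low-resolution replicate 1 had 1.07, 1.12, 0.843 and 1.18, with no such course. FOSB in those plates, in the same order, went from 0.624 to 3.84, from 0.670 to 3.43 and from 0.652 to 1.73 between the first and last block, and from 0.699 to 0.604 in low-resolution replicate 1.

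**Figure D5:**
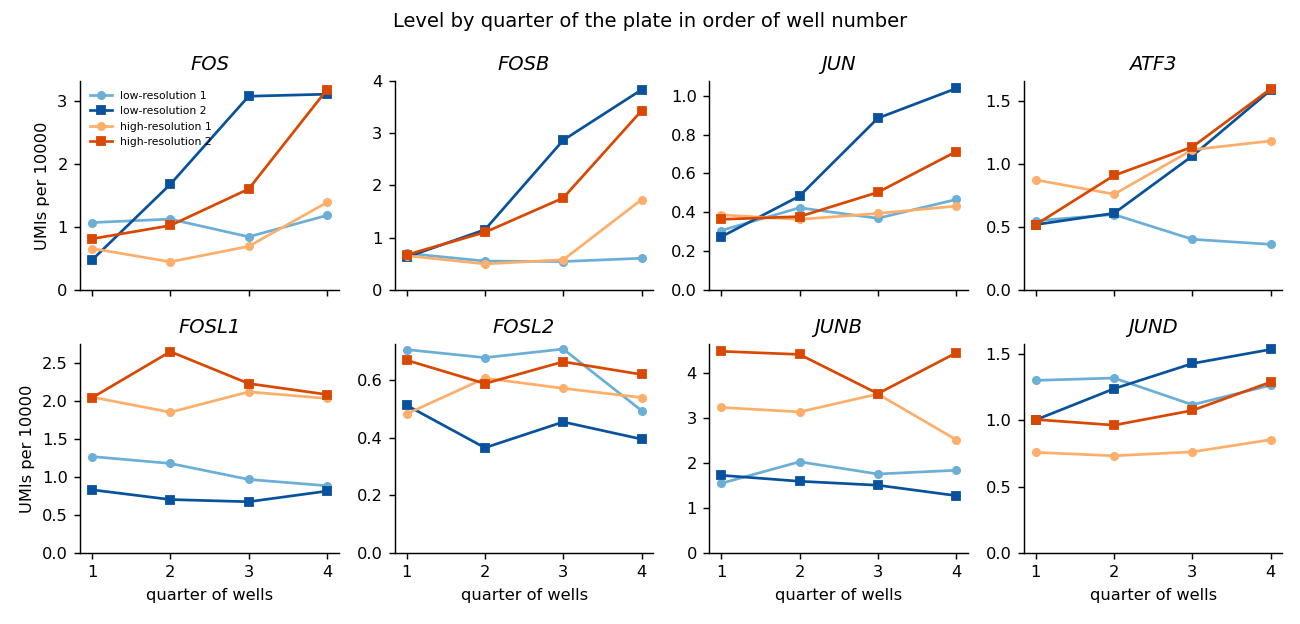
UMIs per 10000 (vertical axis) of each AP-1 gene in 4 successive blocks of 96 well numbers (horizontal axis), with 1 line per plate. FOS, FOSB and ATF3 are higher in the last block than in the first in low-resolution replicate 2 and both high-resolution plates, while the line of low-resolution replicate 1 stays near its start for FOS and FOSB and ends lower for ATF3. JUN differs most in low-resolution replicate 2, and FOSL1, FOSL2 and JUNB have no common course.

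The mean rho with well number over the 4 plates was 0.363 for FOSB, 0.338 for FOS, 0.234 for ATF3 and 0.226 for JUN, and of 8031 other genes 1, 2, 7 and 8 had a higher one. Those above JUN other than members were the mitochondrial transcripts MT-RNR1, MT-RNR2 and MT-ND5, MTRNR2L1, a near-identical nuclear copy of MT-RNR2, and PPP1R15A, which were chosen after their values were seen. FOSL1 had 0.0157, JUNB -0.0382 and FOSL2 -0.0496, inside the range of -0.0588 to 0.0714 that held the middle 90% of genes, and JUND had 0.0766. The EMT score had a mean rho of -0.0695 with well number, the early-response score 0.178, the UMI count 0.139 and the mitochondrial share 0.126. By plate, the EMT score had 0.142 in low-resolution replicate 1, -0.154 in low-resolution replicate 2, and -0.122 and -0.144 in the high-resolution plates.
Sums over the wells with numbers above the midpoint of the 384 were set against sums over those below it, with the plate as a block. FOSB was 1.14 higher (SE 0.194, adjusted p = 0.0560), FOS 0.91 (SE 0.169, adjusted p = 0.0948), JUN 0.61 (SE 0.141, adjusted p = 0.243) and ATF3 0.58 (SE 0.176, adjusted p = 0.614), so 0 of 8 members were called by edgeR beside 0.0713% of 11227 genes, 0.0623% higher and 0.00891% lower. At an unadjusted p under 0.05 there were 673 genes, and DESeq2 called 0 members. With no mitochondrial limit FOSB and FOS were called, and with no filter on low counts FOSB, FOS, ATF3 and JUN. Without low-resolution replicate 1, FOSB rose by 1.46 (adjusted p = 4.24e-07) and FOS by 1.23 (adjusted p = 8.38e-08) by edgeR. ATF3 rose by 0.86 (adjusted p = 1.40e-04) and JUN by 0.74 (adjusted p = 0.0157). These are 4 of 8 members, beside 0.469% of 11310 genes called higher and 0.628% called in either direction. The plate left out is the one without such a course in FOS, FOSB and ATF3, so this fit cannot test the pattern. Leaving out any other plate called 0 members. FOSL1, FOSL2, JUNB and JUND had differences of -0.07, 0.01, -0.10 and 0.17 over all plates.
The comparisons by score were repeated within these 2 ranges of well numbers. Each range of each plate was its own block there, so the 2 ranges of a plate entered as if they were replicates. The calls and adjusted p-values of these fits are therefore not comparable with those of the fits by plate. With score groups made in each range separately, FOS was -1.44, FOSB -0.78 and FOSL1 1.07 along the EMT score, and the 7 calls held beside 46.4% of 9149 genes called in either direction, 24.7% higher. Along the early-response score FOSB was 1.61, FOS 1.17 and JUNB 1.39, and 7 members were called beside 15.9% of 9126 genes called in either direction, 7.56% higher, FOSL2 being the added one at 0.34 (adjusted p = 0.0281). The rho of FOS with FOSB was 0.358 within the ranges and that of FOS with ATF3 was 0.0895, against 0.177 over whole plates. What differs between wells of low and high number was not tested.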

How the data were processed

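Single MCF10A cells from 4 samples, 1 plate each, were compared by plate. Per the labels, the submitters' processing notes name STAR 2.7.3a, Seurat 4 and hg38. The authors deposited expected counts per gene and well, which are UMI numbers corrected for UMIs drawn more than once out of 4096. The correction was undone where cells were thinned. Wells with a feature number of 2000 to 9000 and a mitochondrial share under 40% entered the analysis, spike-ins were left out of library sizes, and counts were log-normalised to 10000. Doublets were not called. The EMT score was computed by GSVA per experiment. Expected counts were summed over cells, rounded and tested with edgeR 4.0.16 (quasi-likelihood, TMM, filterByExpr, Benjamini-Hochberg at 0.05) in R 4.3.3. High- and low-score groups compared cells of the same plates, with the plate as a block, and the genes of a score were left out of the counts of genes called. DESeq2 1.42.0, other filters and depths, and each plate left out were alternatives. The code was tested on simulated data. Replicates are taken to be separate patches of 1 line. Depth is given with the results, and intervals of counting error are not shown. The members and lists were chosen with earlier results of these data known. Named genes were the members, the 5 genes nearest to each of FOSL1, FOS, JUN and ATF3, and at most 2 extremes per list and direction. Some genes that this rule names are not reported here.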

Additional observations from a re-analysis of the deposited data

Results flagged for a closer look

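The difference between high-EMT and low-EMT cells was not the same in both experiments for 4 members, by edgeR's test of the interaction itself. High minus low resolution, on the log2 scale, it was 1.15 for JUN, 0.86 for FOSB, 0.79 for ATF3 and -0.88 for FOS. JUN was lower in high-EMT cells by ratios of 0.356 and 0.408 in the low-resolution plates and stood at 0.972 and 0.769 in the high-resolution plates. The early-response score itself had a rho of -0.0779 and -0.0849 with the EMT score in the low-resolution and of 0.275 and 0.160 in the high-resolution plates, and its part in these 4 differences was not tested. Among 21 early-response genes 5 had a higher and none a lower difference in the same test, EGR2 at 2.49 and EGR3 at 1.90 the largest. These counts stand beside 1.07% of 10595 genes called higher and 2.17% called lower. Of the 4 members DESeq2 called JUN alone. The width of the tagged bands and the experiment cannot be told apart.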

How the results depend on the processing

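For the interaction (343 genes) DESeq2 called 57, no filter 550 and no mitochondrial limit 176, with 237 to 367 when a plate was left out. Between experiments (1547) leaving out a plate gave 982 to 1172, where the lone plate of an arm is assumed to vary like the others. By well number (8) DESeq2 called 1 and no filter 103, and leaving out a plate gave 0 to 71. By early-response score (588) DESeq2 called 183, no filter 1267, no plate term 4 and groups within ranges of well numbers 1453, with 63 to 536 when a plate was left out. The 1453 come from a fit in which the ranges of each plate entered as separate blocks. By EMT score (4313) thinned cells gave 2598. Of the log2 differences of members, 18 changed sign, all of them differences that were not called with all plates and the settings of the report, and FOSB between experiments was called at 1.14 without low-resolution replicate 2. Between experiments, leaving out a plate moved FOS from -0.99 to 0.23, FOSB from -0.85 to 1.14, FOSL2 from -0.0541 to 0.49 and JUN from -0.70 to 0.23. By well number FOSL1 moved from -0.16 to 0.0169 and FOSL2 from -0.0200 to 0.0611, with -0.0103 without the mitochondrial limit. By early-response score FOSL1 moved from -0.0841 to 0.37. By EMT score ATF3 moved from -0.33 to 0.0772, and was 0.16 in thinned cells, 0.14 within ranges of well numbers and 0.0130 with a z-score. Thinning gave a mean rho with the EMT score of 0.228 for FOSL1 and -0.19 for JUND, a rho of 0.353 for JUNB with the early-response score, and 1 pair at 0.2 or more in every plate, where leaving out a plate gave 2 to 4. The cause of these changes was not tested.

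Same-numbered plates did not deviate together (correlation of deviations -0.0241 over 12437 genes), so the numbers do not pair them. With the replicate block 2023 genes were called between experiments, FOSB was 0.0490, and ATF3 (0.57), FOS (-0.44) and JUND (-0.47) were called beside FOSL1 and JUNB.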
